A study of Mus musculus with 10 samples.

Results

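The interferon response genes and the genes of the MHC class I pathway were followed as a set of 39 named genes in RNA from sorted mouse prostate cells. The set is a fixed list of symbols and was not chosen by a threshold on these values. It was, however, chosen with earlier results of these data known, so its counts against all genes are descriptions and not independent tests. All 39 were found among the 24602 genes that the deposited transcript table gave. They were divided by role into 3 sensors of viral RNA, 7 regulators of the response, 13 effectors of the type I response, 6 interferon-inducible GTPases, 6 antigen processing genes and 4 class I molecules. The prostates came from C57BL/6 mice aged 8 to 12 weeks, and no genetic change or drug treatment is named in the labels. Cells were sorted by surface proteins into 4 gates, each negative for lineage markers (Lin-): basal cells (CD24low/CD49fhigh, 2 libraries), luminal cells without Sca-1 (CD24high/CD49flow/Sca-1-, 3 libraries), luminal cells with Sca-1 (CD24high/CD49flow/Sca-1+, 3 libraries) and stromal cells (CD24-/CD49f-, 2 libraries). A protocol for growing prostate cells on collagen in serum, insulin and dihydrotestosterone stands beside the sorting protocol, and whether the sorted cells were cultured is not stated. Separate animals are not named for the libraries of 1 gate, and the p-values below measure only the spread between these libraries, which may be technical. Levels are in FPKM, a count of fragments per kilobase of transcript that is scaled to the size of the library, summed over the transcripts of a gene.

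Cells recognise viral RNA through cytosolic helicases and answer by secreting type I interferons. Type I interferon binds a receptor made of Ifnar1 and Ifnar2, and the kinases Jak1 and Tyk2 then activate a complex that includes Stat2 and Irf9 and binds interferon-stimulated response elements (ISRE) in target promoters. Interferon gamma uses another receptor and acts through gamma-activated sites (GAS), and it switches on Irf1, the guanylate-binding proteins, the immunoproteasome and the peptide transporters. Class I molecules, made of a heavy chain and beta-2 microglobulin, carry the peptides so produced to the cell surface for inspection by T cells. Most of these genes are also expressed at low levels without infection. In the prostate, basal and luminal cells line the ducts, Sca-1+ luminal cells are enriched near the urethra, and fibroblasts and smooth muscle surround the epithelium. Ly6a, the gene of Sca-1, is itself known to be inducible by interferon.

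To show what these genes share in sequence, the 250 bases before the RefSeq start (GRCm38.p6, the assembly that UCSC calls mm10) were searched on both strands for an ISRE written as GAAANNGAAA, whose reverse complement is TTTCNNTTTC, and for a GAS written as TTCNNNGAA, which reads the same on both strands. Matches may overlap each other. A promoter entry was at hand for 32 of the 39 genes, not for Usp18, Dhx58, Iigp1, Tap2, Nlrc5, Parp14 and Rtp4. The ISRE letters were found in 14 of these 32 promoters (43.8%), against 936 of 27025 genes of all kinds (3.46%). The GAS letters were found in 7 of 32 (21.9%), against 2197 of 27025 (8.13%). By role, the ISRE letters occurred in 5 of 5 GTPases, 6 of 11 effectors, 2 of 4 class I molecules, 1 of 5 regulators, 0 of 5 antigen processing genes and 0 of 2 sensors. A match is a description of the letters and was not tested for binding of any factor, and 0 matches says only that these letters were not in this window.

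The 160 bases before the start are printed for 7 of the genes that the results turn on, 5′ to 3′ on the gene's own strand, with matches to ISRE or GAS letters in capitals. Isg15, Ifit3, Gbp2 and Irgm1 are shown as genes that were high in stromal and Sca-1+ luminal libraries, Bst2 and B2m as genes that were low in basal libraries, and Irf1 as the GAS example. Isg15, at chr4:156200819-156200978 (minus strand), has 3 overlapping ISRE matches. Irgm1, at chr11:48871421-48871580 (minus strand), has 2 that overlap. Ifit3, at chr19:34583369-34583528 (plus strand), has 2 separate matches and Gbp2, at chr3:142620503-142620662 (plus strand), has 1, both on the opposite strand. Bst2, at chr8:71537473-71537632 (minus strand), has a GAS match that overlaps the farther of 2 ISRE matches, which overlap each other. B2m, at chr2:122147527-122147686 (plus strand), has 1 ISRE match. Irf1, at chr11:53769854-53770013 (plus strand), has the GAS match alone. 
Isg15: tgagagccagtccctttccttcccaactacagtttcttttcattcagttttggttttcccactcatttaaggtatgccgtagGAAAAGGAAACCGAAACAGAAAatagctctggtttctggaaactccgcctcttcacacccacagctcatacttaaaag
Irgm1: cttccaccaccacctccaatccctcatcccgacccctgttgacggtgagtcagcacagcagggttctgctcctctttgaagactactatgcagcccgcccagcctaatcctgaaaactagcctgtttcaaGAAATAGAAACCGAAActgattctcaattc
Ifit3: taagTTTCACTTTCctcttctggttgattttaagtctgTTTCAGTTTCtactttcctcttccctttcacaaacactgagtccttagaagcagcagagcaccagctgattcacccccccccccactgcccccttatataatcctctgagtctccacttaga
Gbp2: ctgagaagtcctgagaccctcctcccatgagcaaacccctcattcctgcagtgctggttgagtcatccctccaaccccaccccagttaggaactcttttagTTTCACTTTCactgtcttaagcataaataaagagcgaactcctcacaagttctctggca
Bst2: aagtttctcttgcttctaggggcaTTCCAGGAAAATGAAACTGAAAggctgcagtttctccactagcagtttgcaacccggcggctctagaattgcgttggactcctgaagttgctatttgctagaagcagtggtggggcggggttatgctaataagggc
B2m: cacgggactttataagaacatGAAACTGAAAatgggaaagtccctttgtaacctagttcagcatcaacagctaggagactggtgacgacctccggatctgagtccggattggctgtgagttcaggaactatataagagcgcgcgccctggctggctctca
Irf1: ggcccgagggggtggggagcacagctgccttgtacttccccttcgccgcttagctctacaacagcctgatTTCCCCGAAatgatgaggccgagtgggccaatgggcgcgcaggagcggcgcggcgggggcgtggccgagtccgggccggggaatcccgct
The printed genes were picked, so their matches do not show how ISRE letters are spread over high and low genes. Of the genes called lower in basal than Sca-1- luminal libraries, B2m, Bst2, H2-T23 and Oas1a had ISRE letters. Ifi35, Psmb9 and Psmb10 had none. Other genes were called higher in both stromal and Sca-1+ luminal than Sca-1- luminal libraries. Among those with a promoter entry, Ifit1, Ifit3, Oas1a, Gbp2, Gbp3, Igtp and Irgm1 had ISRE letters. Ddx58, Irf1, Irf7, Irf9, Trim25, Ifit2, Oasl2, Xaf1, Psmb8, Tapbp and H2-D1 did not. The descriptions also overlap, since Bst2 had its highest mean in stromal libraries and Oas1a falls under both.

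The libraries held an estimated 20.3 to 27.2 M (mega) fragments. Depth and fragment length were fitted per library so that low FPKM values fell on whole fragments. After that fit 87.5% to 91.7% of these values lay within 0.1 of a whole fragment, which is no separate check of the depth. Between 9844 and 11347 genes reached 1 FPKM per library. Basal libraries held the basal keratin Krt5 at 382 and 535 FPKM against 1.31 to 20.0 elsewhere, and stromal libraries held the fibroblast gene Dcn at 5091 and 3639 FPKM. The luminal keratin Krt8 was at 14.1 and 88.1 FPKM in stromal libraries and at 256 to 2133 FPKM in the others, basal libraries included. Fibroblast genes were also present in the Sca-1+ luminal gate, to unequal degrees: 9 marker genes summed to 5440, 2801 and 391 FPKM in replicates 1, 2 and 3, against 77.5 to 140 in Sca-1- luminal libraries, 510 and 692 in basal, and 5840 and 7489 FPKM in stromal libraries. All 9 of these markers were called higher in Sca-1+ than Sca-1- luminal libraries (all genes 21.9%). Over all genes, Sca-1+ luminal replicate 1 correlated (Pearson) at 0.916 and 0.915 with the stromal libraries. With replicates 2 and 3 of its own gate the values were 0.95 and 0.84. Replicate 2 reached 0.845 and 0.884 with the stromal libraries, and replicate 3 reached 0.703 and 0.735. Sums for 6 luminal markers were 4338, 8712 and 7466 FPKM in the Sca-1+ luminal gate. The other gates had 2992 and 4385 (basal), 554 and 1837 (stromal), and 26517, 44661 and 42431 FPKM (Sca-1- luminal). Of 16 leukocyte markers, 4 to 9 reached 1 FPKM per library, and Ptprc, which encodes the pan-leukocyte protein CD45, was between 0.0197 and 0.338 FPKM in all 10. The summed leukocyte markers ranged from 18.9 to 40.2 FPKM in basal and stromal libraries and from 144 to 530 FPKM in luminal ones, where Cd52 alone gave 96.4 to 492 FPKM. Ly6a was at 19.9 to 82.8 FPKM in Sca-1- luminal libraries, 421 and 473 in basal, 677, 1116 and 2301 in Sca-1+ luminal, and 1290 and 1930 FPKM in stromal libraries. In bulk RNA, fewer cells of a type and less RNA per cell cannot be told apart.

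All 39 genes passed the filter of 1 FPKM in at least 2 libraries, and none was listed at 0 anywhere. Nlrc5 reached 1 FPKM in 3 libraries, Ifi44 in 4, Gbp7 in 5 and Dhx58 in 6. By group mean, 31 of the 39 genes were highest in stromal, 7 in Sca-1+ luminal, 1 in Sca-1- luminal and 0 in basal libraries. The lowest mean was in basal libraries for 21 genes and in Sca-1- luminal libraries for 18. By group mean all 6 GTPases were lowest in Sca-1- luminal libraries. In basal libraries 9 of 13 effectors and 5 of 6 antigen processing genes were lowest. Most of these orders rest on uncalled differences. Between basal and Sca-1- luminal libraries, 0 of 6 GTPases, 3 of 13 effectors and 2 of 6 antigen processing genes were called by limma, as described below. Of all genes tested, 46.3% were called there. The share of all genes with each order was not computed. The heat map of all 39 genes shows these blocks library by library.

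**Figure D1:**
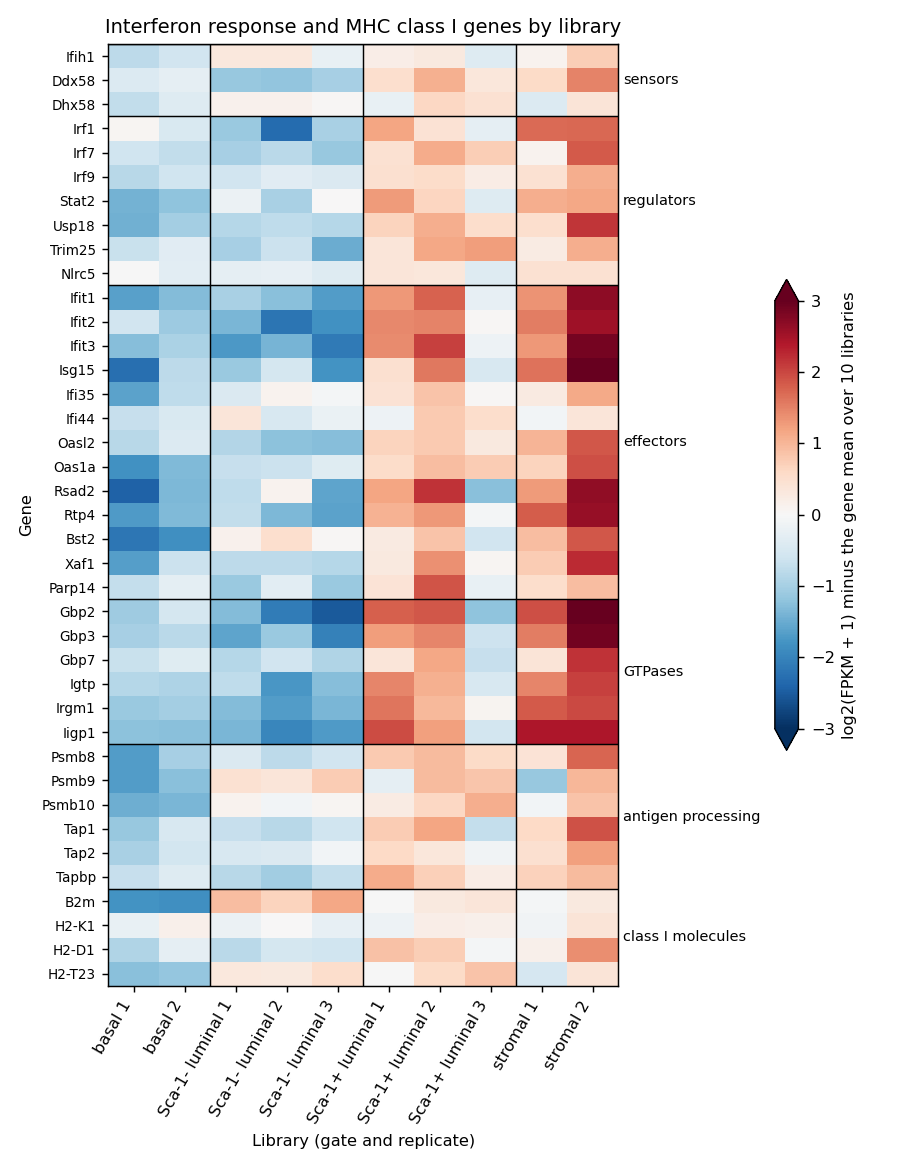
Heat map of the 39 genes (rows, ordered by role) in the 10 libraries (columns, by gate and replicate). Colour is log2(FPKM + 1) minus the gene's mean over the 10 libraries. Stromal and most Sca-1+ luminal columns are red for effectors and GTPases, Sca-1+ luminal replicate 3 is pale, and B2m, Psmb10 and H2-T23 are bluest in the basal columns.

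Members were compared between gates with limma on log2(FPKM + 1), fitted to 12494 genes, with a call where the p-value, adjusted after Benjamini and Hochberg over all of these genes, was under 0.05. Against Sca-1- luminal libraries, 22 of 39 were higher in Sca-1+ luminal libraries and 0 lower, where 21.9% of all genes tested were called higher and 13.4% lower. The median log2 difference was 1.38 for the 39 genes and 0.19 for all genes. Stromal libraries had 30 of 39 higher and 0 lower than Sca-1- luminal libraries (all genes 25.2% and 27.4%), with a median of 1.86 against -0.06 for all genes. Basal libraries had 0 higher and 7 lower than Sca-1- luminal libraries (all genes 20.3% and 26%), a share of lower calls under that of all genes, with a median of -0.16 against -0.05. Against Sca-1+ luminal libraries, basal libraries had 0 higher and 23 lower (all genes 4.38% and 15.4%), with a median of -1.61 against -0.29. Stromal libraries had 30 higher and 0 lower than basal libraries (all genes 13.5% and 9.16%), with a median of 1.93 against 0.02. Between stromal and Sca-1+ luminal libraries 0 genes were called in either direction by limma (all genes 1.8% higher and 11.6% lower), and 8 of the 39 were higher in stromal libraries at an unadjusted p under 0.05. The other counts of 0 stayed at 0 at an unadjusted p under 0.05, except that 2 genes were then higher in basal than Sca-1- luminal libraries. Non-overlap of gates was common. Every library was higher for 24 of 39 genes in Sca-1+ against Sca-1- luminal (all genes 29.3%). For stromal libraries it was 31 against Sca-1- luminal (34.8%), 37 against basal (34.6%) and 12 against Sca-1+ luminal (13.0%). Basal libraries were wholly lower for 33 against Sca-1+ luminal (38.7%). Against Sca-1- luminal they were wholly higher for 11 (33.3%) and wholly lower for 14 (36.6%). The other directions had 0 or 1.

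The size of several of these counts changed when libraries were left out, and so did the share of all genes called. With Sca-1+ luminal replicate 3 as the only library of its gate, the median log2 difference from Sca-1- luminal libraries was 0.78. For all genes it was 0.16. Without that replicate 29 of the 39 genes were called higher, where 42.1% of all genes were called in either direction. For basal against Sca-1+ luminal libraries the median of the 39 genes was -1.61 with all libraries. It was -1.34 without basal replicate 1 and -1.70 without basal replicate 2. Each of these fits left a single basal library, and calls fell over all genes as well as among the 39. Without Sca-1+ luminal replicate 2 the lower calls went from 23 to 11, and all genes called in either direction from 19.8% to 12%. Where replicate 3 stood alone for that gate the median was -0.93. For stromal against basal libraries the median was 1.93 with all libraries. It was 1.63 without stromal replicate 2, 1.85 without basal replicate 1 and 2.27 without basal replicate 2. These fits also left a single library in a gate, with fewer calls over all genes. For basal against Sca-1- luminal libraries the median was -0.16 with all libraries, 0.165 without basal replicate 1 and -0.385 without basal replicate 2.

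**Figure D2:**
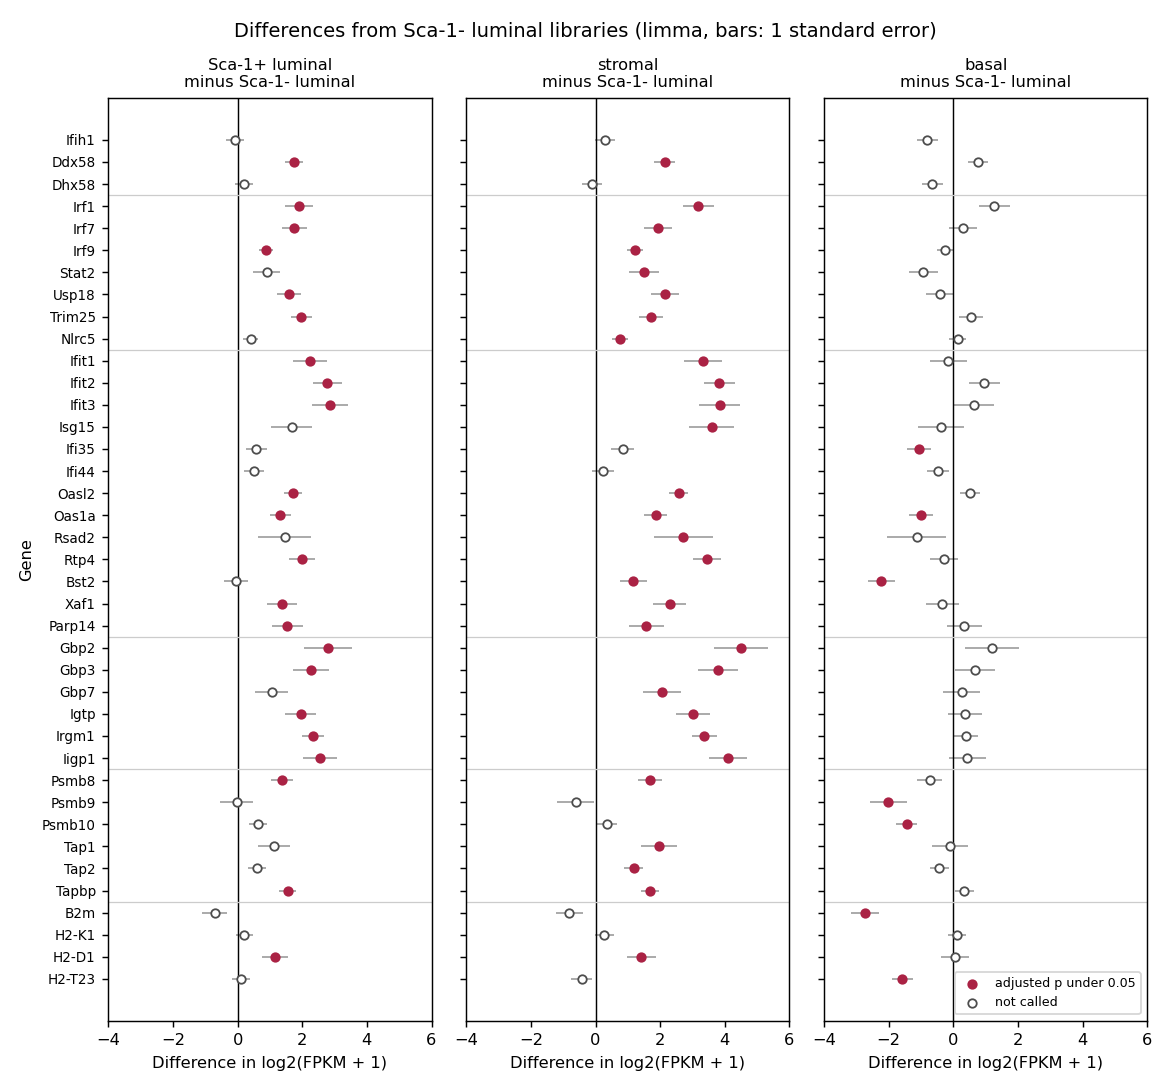
Difference in log2(FPKM + 1) of each gene between Sca-1+ luminal, stromal or basal and Sca-1- luminal libraries. Points are limma estimates, bars 1 standard error, filled points an adjusted p under 0.05. Effectors and GTPases lie to the right in the Sca-1+ and stromal panels, and the 7 filled points of the basal panel lie to the left. The 3 panels share the Sca-1- luminal libraries.

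Among the sensors, Ddx58, which encodes the RNA helicase RIG-I, was the 1 called between the luminal gates. It measured 2.11, 2.02 and 2.42 FPKM in Sca-1- luminal libraries, 4.16 and 4.63 in basal, 8.73, 13.3 and 7.57 in Sca-1+ luminal, and 9.2 and 18.1 FPKM in stromal libraries. Among neighbours in this order, only Sca-1+ luminal and stromal libraries overlapped. Its log2 level was 1.74 ± 0.28 (SE) higher in Sca-1+ than Sca-1- luminal libraries (limma, adjusted p = 0.00242). Ifih1, which encodes the related helicase MDA5, measured 6.09, 6.08 and 3.89 FPKM in Sca-1- luminal libraries, 5.52, 6.05 and 3.38 in Sca-1+ luminal, 5.16 and 8.46 in stromal, and 2.32 and 2.86 FPKM in basal libraries. Only the basal libraries stood apart for Ifih1, and among the 6 comparisons only stromal against basal was called (log2 difference 1.09, adjusted p = 0.0465). Dhx58, which encodes the regulatory helicase LGP2, ranged from 0.269 to 2.26 FPKM, its gates overlapped in part, and it was called in no comparison. A deposited transcript annotated as antisense to Dhx58 lies at the same locus, and strandedness is not stated, so reads of the 2 cannot be told apart.

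Regulators were called higher in stromal than Sca-1- luminal libraries for 7 of 7 genes (all genes 25.2%), and 5 of 7 in Sca-1+ luminal libraries (all genes 21.9%). Irf1, a transcription factor that interferon gamma switches on, was at 99.2 and 101 FPKM in stromal libraries. Its levels were 69.0, 40.8 and 24.4 FPKM in Sca-1+ luminal libraries, 31.1 and 21.6 in basal, and 13.3, 5.20 and 14.8 FPKM in Sca-1- luminal libraries. Both basal libraries lay above all 3 Sca-1- luminal libraries for Irf1, as they did for 33.3% of all genes tested. The log2 difference of 1.27 ± 0.48 for Irf1 missed the threshold (limma, adjusted p = 0.0535). The stromal libraries were 3.18 ± 0.48 higher on the log2 scale than Sca-1- luminal libraries (limma, adjusted p = 0.000645). Trim25, the ubiquitin ligase that acts on RIG-I, was highest in the Sca-1+ luminal gate, at 25.3, 45.2 and 48.3 FPKM. It was at 23.2 and 43.0 FPKM in stromal, 12.0 and 15.3 in basal, and 9.33, 12.1 and 6.30 FPKM in Sca-1- luminal libraries, and the log2 difference between the luminal gates was 1.98 ± 0.34 (limma, adjusted p = 0.00286). Replicate 3, which was the lowest Sca-1+ luminal library for most of the 39 genes, was the highest for Trim25.

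The remaining regulators include the partners of the ISRE-binding complex. Irf9 ranged from 10.6 to 15.3 FPKM over basal and Sca-1- luminal libraries and from 23.2 to 43.0 FPKM over Sca-1+ luminal and stromal libraries. Irf7, which amplifies interferon production, was at 5.52 to 8.49 FPKM in the former 2 gates and at 14.4 to 49.8 FPKM in the latter. Stat2 was at 2.53 and 3.12 FPKM in basal libraries and at 3.8 to 22.1 FPKM in the others. Usp18, a protease that removes Isg15 and damps receptor signalling, was at 1.25 to 2.57 FPKM in basal and Sca-1- luminal libraries and 7.57 to 26 FPKM in the others. Irf7, Irf9 and Usp18 did not overlap between these pairs of gates. Nlrc5, the activator of class I gene transcription, was the lowest regulator, at 0.182 to 1.14 FPKM, and was called only between stromal and Sca-1- luminal libraries (log2 difference 0.76, adjusted p = 0.0314).

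Effectors of the type I response formed the largest role group. Of these 13, 11 were called higher in stromal than Sca-1- luminal libraries (all genes 25.2%) and 8 in Sca-1+ luminal libraries (all genes 21.9%). Isg15, a ubiquitin-like protein that is attached to other proteins during the response, lies on the minus strand of chromosome 4 (mm10, chr4:156199424-156200818). Its level was 5.31 and 16.6 FPKM in basal, 13.1, 19.9 and 7.77 in Sca-1- luminal libraries, 41.1, 90.2 and 20.8 in Sca-1+ luminal, and 92.5 and 293 FPKM in stromal libraries. Both stromal libraries exceeded all others, and the lowest Sca-1+ luminal library was just above the highest Sca-1- luminal library. The log2 difference between stromal and basal libraries was 3.98 ± 0.77 (limma, adjusted p = 0.00631), the largest increase among the 39 genes in that comparison. Between the luminal gates the difference of 1.67 ± 0.63 was not called (limma, adjusted p = 0.0639), nor was that of 1.92 ± 0.70 between stromal and Sca-1+ luminal libraries (adjusted p = 0.101).

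The Ifit genes encode proteins that bind foreign RNA. Ifit3 was at 4.09 and 5.31 FPKM in basal, 2.69, 3.66 and 1.81 in Sca-1- luminal libraries, 31.8, 49.5 and 10.0 in Sca-1+ luminal, and 29.1 and 89.4 FPKM in stromal libraries. Every Sca-1+ luminal and stromal library was above every basal and Sca-1- luminal library. Its difference between the luminal gates, 2.85 ± 0.56 on the log2 scale, was the largest of the 39 (limma, adjusted p = 0.00533). Of the 50-base stretches of the Ifit3 transcript, 51.2% also occur in transcripts of other genes, most of them of Ifit3b, so its reads could be split. Ifit2 was at 4.13 and 2.64 FPKM in basal, 1.95, 0.696 and 1.18 in Sca-1- luminal libraries, 19.9, 20.5 and 6.87 in Sca-1+ luminal, and 21.4 and 43.8 FPKM in stromal libraries. The 4 gates did not overlap for Ifit2, and the luminal gates differed by 2.78 ± 0.44 on the log2 scale (limma, adjusted p = 0.002). Ifit1 was at 4.63 and 6.00 FPKM in basal libraries, 7.80, 6.24 and 4.37 in Sca-1- luminal libraries, 41.3, 58.2 and 13.5 in Sca-1+ luminal, and 42.7 and 111 FPKM in stromal libraries. Basal and Sca-1- luminal libraries overlapped for Ifit1, and basal libraries were lower than Sca-1+ luminal libraries (log2 difference -2.40 ± 0.58, limma, adjusted p = 0.0187).

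**Figure D3:**
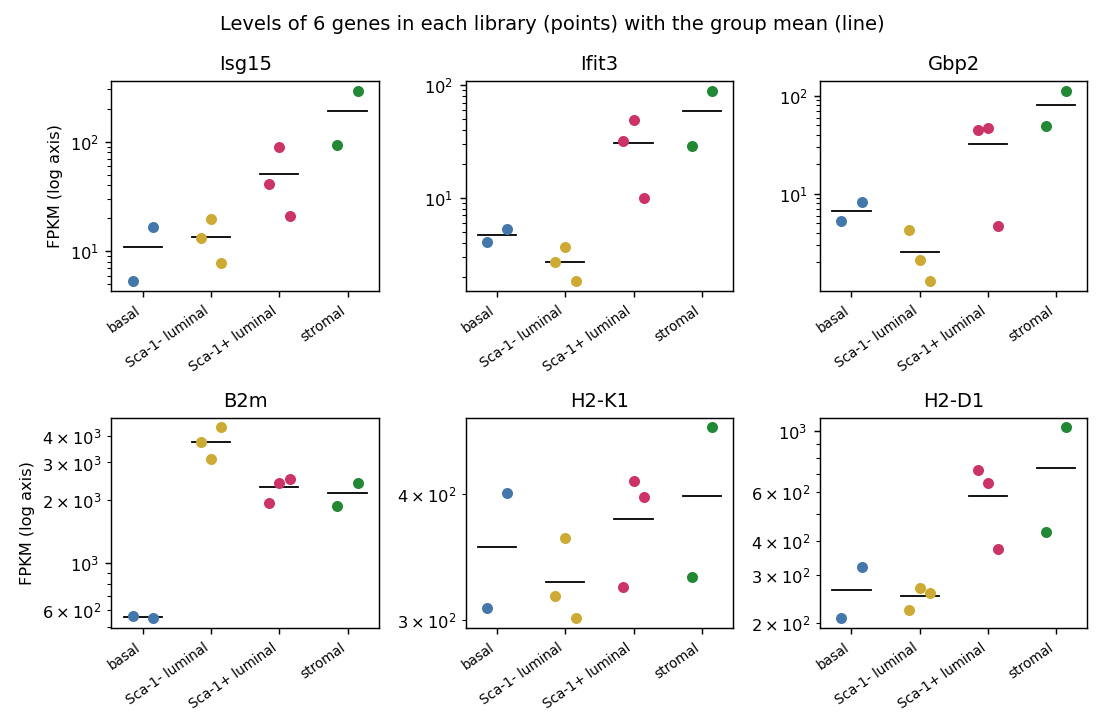
FPKM of 6 genes in each library (points, log axes that differ between panels) with the group mean (line), by gate. Isg15, Ifit3 and Gbp2 are high in stromal and Sca-1+ luminal libraries, with 1 low Sca-1+ luminal point each. B2m is lowest in basal libraries, and H2-K1 spans only 301 to 466 FPKM.

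Rsad2 and Rtp4 were also among the largest differences from basal libraries. Rsad2, which encodes the antiviral enzyme viperin, was at 0.891 and 2.95 FPKM in basal, 4.95, 9.88 and 2.37 in Sca-1- luminal libraries, 22.2, 44.8 and 3.25 in Sca-1+ luminal, and 23.4 and 62.6 FPKM in stromal libraries. The third Sca-1+ luminal library lay inside the Sca-1- luminal range, and the luminal gates differed by 1.46 ± 0.82 on the log2 scale, which was not called (limma, adjusted p = 0.184). Rtp4, named as a receptor transporter protein, was at 3.51 and 4.80 FPKM in basal, 7.82, 4.75 and 3.79 in Sca-1- luminal libraries, 29.1, 35.2 and 13.0 in Sca-1+ luminal, and 50.6 and 87.8 FPKM in stromal libraries. Both stromal libraries exceeded every Sca-1+ luminal library for Rtp4, with a difference of 1.45 ± 0.44 that narrowly missed the threshold (limma, adjusted p = 0.0567). Oas1a, an enzyme that makes the activator of RNase L, was at 0.308 and 0.856 FPKM in basal, 1.85, 1.97 and 2.62 in Sca-1- luminal libraries, 5.80, 7.79 and 6.89 in Sca-1+ luminal, and 6.35 and 16.6 FPKM in stromal libraries. It was called in 5 of the 6 comparisons, the most of any of the 39 genes, including lower in basal than Sca-1- luminal libraries (log2 difference -1.01, limma, adjusted p = 0.0449). For Oas1a 57.6% of 50-base stretches occur in other transcripts, most of them of Oas1g.

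Bst2 encodes tetherin, which holds budding viruses at the cell surface. It measured 31.0, 40.6 and 29.0 FPKM in Sca-1- luminal and 34.1, 51.9 and 18.5 FPKM in Sca-1+ luminal libraries, which overlapped. Its levels were 5.48 and 7.20 FPKM in basal and 54.6 and 106 FPKM in stromal libraries. Basal libraries were lower than Sca-1- luminal libraries (log2 difference -2.23 ± 0.42, limma, adjusted p = 0.00209). Ifi35 was at 6.36 and 12.2 FPKM in basal libraries and at 15.7 to 48.6 FPKM in all others, and was likewise called lower in basal than Sca-1- luminal libraries. Ifi44, between 0.311 and 2.65 FPKM, was called in no comparison. The other 3 effectors, Oasl2, Xaf1 and Parp14, were each called higher in Sca-1+ luminal and in stromal than Sca-1- luminal libraries.

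The 6 GTPases, proteins that attack the vacuoles of intracellular pathogens, showed 1 order of group means: stromal, then Sca-1+ luminal, then basal, then Sca-1- luminal. Of these 6, 0 were called between stromal and Sca-1+ luminal (all genes 13.4%) or between basal and Sca-1- luminal libraries (all genes 46.3%). All 6 were called higher in stromal (all genes 25.2%) and 5 higher in Sca-1+ luminal (all genes 21.9%) than Sca-1- luminal libraries. Gbp2, a guanylate-binding protein, measured 4.32, 2.10 and 1.28 FPKM in Sca-1- luminal libraries, 5.32 and 8.17 in basal, 44.5, 46.9 and 4.75 in Sca-1+ luminal, and 49.6 and 113 FPKM in stromal libraries. The third Sca-1+ luminal library was below both basal libraries and just above the Sca-1- luminal range. The log2 difference of stromal from Sca-1- luminal libraries was 4.50 ± 0.84 (limma, adjusted p = 0.00184), the largest of that comparison, and that of the luminal gates was 2.79 ± 0.75 (adjusted p = 0.0192). The difference of 1.71 ± 0.84 between stromal and Sca-1+ luminal libraries was not called (limma, adjusted p = 0.197), nor was that of 1.18 ± 0.84 between basal and Sca-1- luminal libraries (adjusted p = 0.277).

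Irgm1 and Iigp1, of the immunity-related GTPase family, varied less within the stromal gate. Irgm1 was at 65.9 and 72.9 FPKM in stromal, 55.6, 35.2 and 18.6 in Sca-1+ luminal libraries, 7.56 and 8.22 in basal, and 6.49, 4.82 and 6.18 FPKM in Sca-1- luminal libraries. None of the 4 gates overlapped, and the luminal gates differed by 2.34 ± 0.34 on the log2 scale (limma, adjusted p = 0.00141). Iigp1 was at 32.0 and 32.3 FPKM in stromal, 23.1, 13.4 and 3.24 in Sca-1+ luminal libraries, 1.64 and 1.61 in basal, and 1.41, 0.595 and 0.915 FPKM in Sca-1- luminal libraries. The stromal difference from Sca-1- luminal libraries was 4.09 ± 0.58 (limma, adjusted p = 0.000489). A single-exon transcript inside the Iigp1 locus was left out of its sum, and with it added, an alternative chosen after seeing the data, the difference was 4.47. Gbp7, at 0.453 to 11.3 FPKM, was the GTPase not called between the luminal gates.

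Antigen processing genes were lowest in basal libraries by group mean for 5 of 6, with Tapbp the exception. Tapbp encodes tapasin, which holds empty class I molecules at the peptide transporter. It measured 200.0, 152 and 107 FPKM in Sca-1+ luminal, 149 and 178 in stromal, 57.0 and 70.5 in basal, and 51.0, 44.0 and 55.7 FPKM in Sca-1- luminal libraries. Its higher levels in Sca-1+ than Sca-1- luminal libraries, by 1.55 ± 0.26 on the log2 scale (limma, adjusted p = 0.00254), were also called when any 1 of the 10 libraries was left out (log2 difference 1.33 to 1.78). The transporter subunits Tap1 and Tap2 ranged from 2.87 to 30.9 and from 7.85 to 39.7 FPKM, were both higher in stromal than Sca-1- luminal libraries, and were not called between the luminal gates.

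The immunoproteasome subunits Psmb8, Psmb9 and Psmb10 replace the constitutive subunits Psmb5, Psmb6 and Psmb7 and change which peptides are cut. Psmb8 was at 5.71 and 9.65 FPKM in basal, 14.8, 11.5 and 13.3 in Sca-1- luminal libraries, 35.7, 40.5 and 30.7 in Sca-1+ luminal, and 27.3 and 71.0 FPKM in stromal libraries. Psmb9 was at 1.13 and 1.85 FPKM in basal, 8.46, 7.86 and 10.6 in Sca-1- luminal libraries, 4.66, 12.3 and 11.1 in Sca-1+ luminal, and 2.10 and 12.6 FPKM in stromal libraries. Thus Psmb9 did not separate the luminal gates, whereas Psmb8 did (log2 difference 1.37 ± 0.33, limma, adjusted p = 0.0132). Basal libraries were lower than Sca-1- luminal libraries for Psmb9 (log2 difference -2.01 ± 0.57, limma, adjusted p = 0.0171) and for Psmb10 (log2 difference -1.45, adjusted p = 0.00526). The constitutive subunits were called in 0 of the 6 comparisons by limma, and in 0 at an unadjusted p under 0.05.

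Set against the constitutive subunits, the 3 immunosubunits differed in pattern. The Psmb8 to Psmb5 ratio of FPKM was 0.154 and 0.161 in basal, 0.219, 0.109 and 0.139 in Sca-1- luminal libraries, 0.870, 0.610 and 0.389 in Sca-1+ luminal, and 0.866 and 0.893 in stromal libraries. Psmb10 to Psmb7 was 0.0543 and 0.0515 in basal and 0.149 to 0.176 in Sca-1- luminal libraries, and reached 0.308 to 0.369 in Sca-1+ luminal libraries and 0.210 and 0.324 in stromal ones. Psmb9 to Psmb6 was 0.00936 and 0.0115 in basal libraries and overlapped among the other gates, from 0.0255 to 0.0950. Basal libraries therefore had the lowest ratio for Psmb9 and Psmb10 but shared the low Psmb8 ratio with Sca-1- luminal libraries.

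**Figure D4:**
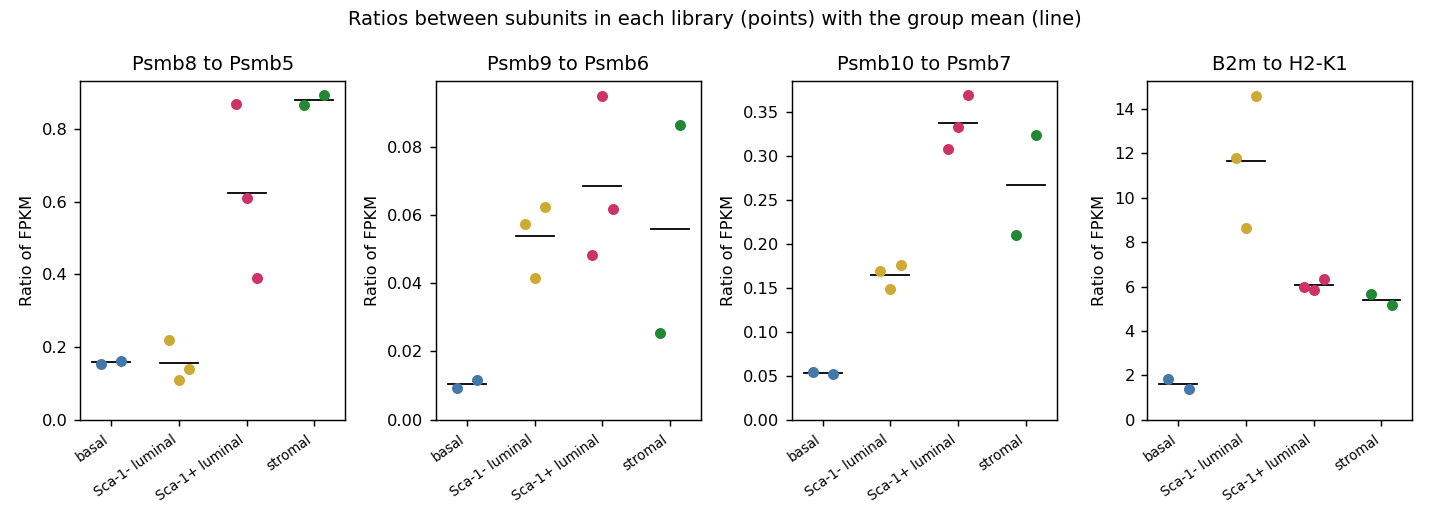
Ratio of FPKM between each immunoproteasome subunit and the constitutive subunit it replaces, and between B2m and H2-K1, in each library (points) with the group mean (line). Axes start at 0 and differ between panels. The Psmb8 ratio is 0.109 to 0.219 in basal and Sca-1- luminal libraries, and the B2m to H2-K1 ratio is below 2 in basal libraries.

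Of the 4 class I molecules, B2m, the light chain beta-2 microglobulin, was the 1 gene of the 39 with its highest mean FPKM in Sca-1- luminal libraries, an order against Sca-1+ luminal and stromal libraries that turned under quantile normalization (log2 differences 0.24 and 0.18). It stood at 3740, 3125 and 4402 FPKM there, at 1937, 2408 and 2508 in Sca-1+ luminal, 1875 and 2409 in stromal, and 563 and 550 FPKM in basal libraries. In the deposited FPKM, Sca-1- luminal libraries were above, and basal libraries below, all others. The drop in basal against Sca-1- luminal libraries (log2 difference -2.74 ± 0.42, limma, adjusted p = 0.000747) was the largest decrease in that comparison. The differences of Sca-1+ luminal and stromal from Sca-1- luminal libraries were -0.71 ± 0.38 and -0.81 ± 0.42 and were not called (limma, adjusted p = 0.163 and 0.134).

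Unlike B2m, the classical heavy chain genes H2-K1 and H2-D1 were not called lower in basal libraries than in any other gate. H2-K1, a classical class I heavy chain (mm10, chr17:33996012-34000333), was at 308 and 401 FPKM in basal, 317, 362 and 301 in Sca-1- luminal libraries, 323, 412 and 397 in Sca-1+ luminal, and 331 and 466 FPKM in stromal libraries. All 4 gates overlapped, its highest library was 1.55 times its lowest, and it was called in no comparison. The other classical heavy chain, H2-D1 (mm10, chr17:35263094-35267497), was at 209 and 322 FPKM in basal, 224, 270 and 259 in Sca-1- luminal libraries, 724, 650 and 374 in Sca-1+ luminal, and 432 and 1035 FPKM in stromal libraries. It was higher in Sca-1+ than Sca-1- luminal libraries by 1.16 ± 0.39 on the log2 scale (limma, adjusted p = 0.0453). Both basal libraries lay below every Sca-1+ luminal and stromal library for H2-D1. Neither of these differences was called (limma, adjusted p = 0.104 and 0.0711). H2-T23, which encodes the non-classical molecule Qa-1, resembled B2m in basal libraries, at 27.5 and 29.5 FPKM there against 47.4 to 123 FPKM in all others (log2 difference from Sca-1- luminal libraries -1.58, limma, adjusted p = 0.00329). Sequence shared with other genes was 8.8% of 50-base stretches for H2-K1, 14.3% for H2-D1 and 28.8% for H2-T23, so reads may be split among class I genes.

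The 2 chains of the class I complex stood in different proportions. The B2m to H2-K1 ratio of FPKM was 1.83 and 1.37 in basal libraries, 11.8, 8.63 and 14.6 in Sca-1- luminal libraries, 6.00, 5.85 and 6.32 in Sca-1+ luminal, and 5.66 and 5.17 in stromal libraries. The H2-D1 to H2-K1 ratio was 0.679 to 0.862 in basal and Sca-1- luminal libraries, 2.24, 1.58 and 0.944 in Sca-1+ luminal, and 1.31 and 2.22 in stromal libraries. The B2m ratio thus separated basal from every other gate, and the H2-D1 ratio separated the 2 low gates from the 2 high ones.

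In the stromal, basal and Sca-1+ luminal gates, libraries of 1 gate also differed over most of the 39 genes in 1 direction. Stromal replicate 2 was above replicate 1 for 38 of 39 genes, with a median log2 difference of 0.88, where 61.5% of all genes were higher and the median was 0.12. In Sca-1- luminal libraries the 3 pairs of replicates differed by a median of -0.07 to -0.01. In these pairs 14 to 18 of 39 genes were higher in the later-numbered library. Basal replicate 2 was above replicate 1 for 32 of 39 genes with a median of 0.31, against 43.8% and -0.04 for all genes. Sca-1+ luminal replicate 2 was above replicate 1 for 30 of 39, with a median of 0.37, where 49.1% of all genes were higher.

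Sca-1+ luminal replicate 3 was the lowest of its 3 libraries for 29 of 39 genes, against 36.1% of all genes tested. This held for 6 of 6 GTPases and 11 of 13 effectors but for 1 of 4 class I molecules. The 10 genes not lowest there were Dhx58, Irf7, Trim25, Ifi44, Oas1a, Psmb9, Psmb10, B2m, H2-K1 and H2-T23. The same replicate had the least fibroblast RNA of its gate (391 FPKM for 9 markers) and the most Ly6a (2301 FPKM). Smooth muscle, endothelial and basal markers were also lowest there. Replicates 1, 2 and 3 had sums of 239, 351 and 23.3 FPKM for 5 smooth muscle genes, 37.2, 30.0 and 5.99 FPKM for 8 endothelial genes, and 132, 465 and 41.5 FPKM for 5 basal genes. Fibroblast marker sums and most of the 39 genes were thus lowest in the same Sca-1+ luminal library, as both were lower in the Sca-1- than in the Sca-1+ luminal gate, and the part of RNA from any of these cell types in the differences was not tested. Stromal replicate 2, the higher stromal library for interferon genes, had the smaller fibroblast marker sum of the 2.

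**Figure D5:**
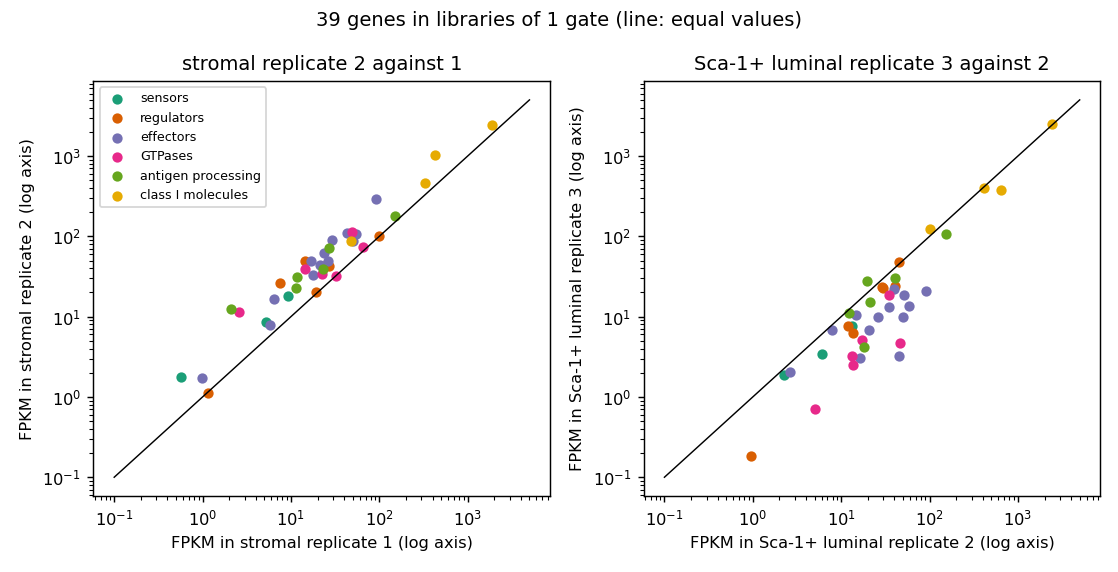
FPKM of the 39 genes in stromal replicate 2 against replicate 1 (left) and in Sca-1+ luminal replicate 3 against replicate 2 (right), on log axes, coloured by role, with the line of equal values. In the left panel 38 of 39 points lie above the line, and in the right panel 4 do.

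The genes upstream of the 39 were followed in lists of other pathway genes. Of 21 interferon ligands, 20 were under 1 FPKM in every library and 13 were listed at 0 in all 10. The ligand above that level was Ifne, interferon epsilon, which is known for its constitutive expression in reproductive tract epithelium. Its level was 2.18, 4.92 and 6.36 FPKM in Sca-1+ luminal, 0.855, 0.888 and 0.545 in Sca-1- luminal libraries, 0.0926 and 0.193 in basal, and 0.0888 and 0 FPKM in stromal libraries. Sca-1+ luminal libraries were above all others for Ifne (log2 difference from Sca-1- luminal libraries 1.56 ± 0.29, limma, adjusted p = 0.00444). Replicate 3, with the lowest levels of most of the 39 genes in its gate, had the highest Ifne.

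Of 19 other receptor and signalling genes, 9 were higher and 1 lower in Sca-1+ than Sca-1- luminal libraries (all genes 21.9% and 13.4%). Their median log2 difference was 0.89. In stromal against Sca-1- luminal libraries, 11 of the 19 were higher and 2 lower (all genes 25.2% and 27.4%), with a median of 1.20. The 3 with the highest levels were Socs3, an inhibitor of cytokine signalling, the transcription factor Stat3 and the receptor kinase Jak1. Jak1 measured 22.1, 23 and 18.3 FPKM in Sca-1- luminal libraries, 64.6 and 46.6 in basal, 157, 90.6 and 40.8 in Sca-1+ luminal, and 145 and 201 FPKM in stromal libraries. Socs3 ranged from 9.89 to 20.6 FPKM in Sca-1- luminal libraries and from 51.1 to 426 FPKM in the others, and Stat3 from 22.3 to 41.7 against 62.8 to 191 FPKM. All 3 were called higher in basal than Sca-1- luminal libraries, as were 9 of the 19 in all, with 3 lower (all genes 20.3% and 26%).

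Of 60 other interferon-stimulated genes, 54 were tested. Of these, 25 were higher and 2 lower in Sca-1+ than Sca-1- luminal libraries (all genes 21.9% and 13.4%). In stromal than Sca-1- luminal libraries 35 were higher and 3 lower (all genes 25.2% and 27.4%). In stromal than basal libraries 34 were higher and 0 lower (all genes 13.5% and 9.16%). In basal than Sca-1- luminal libraries 3 were higher and 9 lower, both shares under those of all genes (20.3% and 26%). Their median log2 differences in these 4 comparisons were 1.08, 1.69, 2.08 and -0.06. Ifitm3, a membrane protein that blocks virus entry, had the highest level of the list. It was at 1634 and 1963 FPKM in basal, 163, 142 and 84.1 in Sca-1- luminal libraries, 1280, 1025 and 228 in Sca-1+ luminal, and 2298 and 3572 FPKM in stromal libraries. Basal libraries were thus among the high ones for Ifitm3 (log2 difference from Sca-1- luminal libraries 3.83, limma, adjusted p = 0.00152) although they were low for Ifit1, Bst2 and Isg15. Ifitm2 and the chemokine Cxcl10, the next in level, were also called higher in basal than Sca-1- luminal libraries, by 0.95 and 2.44 on the log2 scale.

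Beyond the 39, other class I genes and peptide loading genes were followed. Of 9 other class I genes tested, 0 were higher and 2 lower in Sca-1+ luminal than Sca-1- luminal libraries (all genes 21.9% and 13.4%). Against the same libraries 0 were higher and 4 lower in basal (all genes 20.3% and 26%). In stromal libraries 4 were higher and 2 lower (all genes 25.2% and 27.4%). H2-Q10, which encodes a class I molecule known as a secreted form, measured 90.0, 97.2 and 202 FPKM in Sca-1- luminal libraries, 12.8, 19.7 and 3.59 in Sca-1+ luminal libraries, 2.95 and 6.40 in basal, and 4.80 and 11 FPKM in stromal libraries. H2-T22 and Mr1, the latter with its highest mean in stromal libraries, were lower in basal than Sca-1- luminal libraries (log2 differences -2.03 and -2.01, limma, adjusted p = 0.000617 and 0.000428). Of 8 other peptide loading genes, 0 were higher and 2 lower in Sca-1+ luminal than Sca-1- luminal libraries (all genes 21.9% and 13.4%). These 2 were the chaperones Calr, at 885 to 934 FPKM in Sca-1- luminal and 277 to 424 FPKM in all other libraries, and Pdia3, at 507 to 599 against 162 to 302 FPKM. Canx, the third chaperone by level, was called in no comparison. MHC class II genes, which mark antigen-presenting cells but can also be induced by interferon gamma, were rarely called. Of 6 tested, 1 was called between stromal and basal libraries (all genes 22.7%) and 1 between basal and Sca-1+ luminal libraries (all genes 19.8%). In the other 4 comparisons 0 of 6 were called, where 13.4% to 52.6% of all genes were. Cd74, the class II invariant chain, ranged from 14.6 to 57.7 FPKM over all 10 libraries.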

How the data were processed

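RNA of the 10 libraries was made into cDNA with a NuGEN Ovation kit that uses random and poly(dT) primers, and libraries were built with a TruSeq DNA kit from Illumina, per the labels' protocols. Per the submitters' processing notes the reads went through bcl2fastq 1.8.3, TopHat and Cufflinks on mm10, with no version of TopHat or Cufflinks given in the sources used here. FPKM per UCSC transcript, with its confidence bounds, is as the authors deposited it, per the file headers. Per-library depth was fitted to the FPKM steps of isolated transcripts only, so no count model was used.

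Of 63241 transcripts, 54058 (85.5%) were matched by mm10 position to GENCODE M21 or RefSeq genes, which carry the gene names, since the files do not. Transcripts under 300 nt were left out, and FPKM was summed per gene, with 7 genes dropped for a failed estimate and all 39 genes were kept. Gates were compared on log2(FPKM + 1) by limma 3.58.1 (R 4.3.3), with 1 mean per gate, all 10 libraries, a spread trended on level, and 6 residual degrees of freedom. Fold differences are therefore on the log2(FPKM + 1) scale, which understates changes of low genes. The procedure was also run on simulated data in which each gene had 1 mean in all gates, apart from a small set changed in Sca-1+ luminal libraries. The real gates differed in many more genes, so that run cannot vouch for the calls given here. Genes were named by rule: Isg15, Gbp2 and Ifit3, the 2 highest of each role, the called genes with the 3 largest changes in each direction per comparison, and genes called nowhere. For other lists the 3 highest genes were named, together with Ifne, the 2 peptide loading genes called between luminal gates, and marker or regulator genes given for context. The 39 genes and the lists were chosen with earlier results of these data known. Alternatives changed the pseudocount, filter, scaling, libraries and transcripts summed. Libraries of a gate are numbered in the order listed. Tables and figures used Python 3.11.15, pandas 2.3.3 and matplotlib 3.10.9.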

Additional observations from a re-analysis of the deposited data

How the results depend on the processing

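With Sca-1+ luminal replicate 3 as the only library of its gate, which is then assumed to vary like the other gates, 7 of the 39 genes were called higher in Sca-1+ than Sca-1- luminal libraries, 7 lower in basal than Sca-1+ luminal, 1 higher in basal than Sca-1- luminal and 17 higher in stromal than Sca-1+ luminal libraries. The 23 lower calls in basal against Sca-1+ luminal libraries became 14 with no filter on low values and 14 with median-of-ratios scaling. They became 13 with quantile normalization and 10 when only the 2 compared gates were fitted. All genes called in either direction went from 19.8% to 10.4%, 20%, 16.7% and 10.1% in the same order. The 0 higher calls in basal against Sca-1- luminal libraries became 1 with a pseudocount of 0.1, 2 with median-of-ratios scaling, 1 with quantile normalization, 2 with the compared gates alone and 2 with the highest transcript per gene, and these were Ddx58, Irf1 or Ifit2. The 0 higher calls in stromal against Sca-1+ luminal libraries became 5 with median-of-ratios scaling (Bst2, Irf1, Irgm1, Oasl2 and Rtp4) and 2 with quantile normalization. All genes called in either direction there went from 13.4% to 13.1% and 13.2%. Leaving out 1 library at a time gave 0 to 3 higher and 4 to 9 lower calls in basal against Sca-1- luminal libraries, 2 to 32 lower in basal against Sca-1+ luminal, 16 to 29 higher in Sca-1+ against Sca-1- luminal, 21 to 30 higher and 0 to 1 lower in stromal against Sca-1- luminal (the 1 was Psmb9, without stromal replicate 2), 0 to 4 higher in stromal against Sca-1+ luminal, and 11 to 33 higher in stromal against basal libraries. Of the changes of single genes called in the comparisons, none changed sign under any alternative run, and 309 of 2020 values lost the call. Among uncalled changes given in the text, that of Rsad2 between luminal gates turned to -0.50 with replicate 3 alone, and those of B2m in Sca-1+ luminal and stromal against Sca-1- luminal libraries turned to 0.24 and 0.18 with quantile normalization, so the direction of B2m there rests on the scaling. Median-of-ratios and quantile scaling moved the median of all genes between luminal gates from 0.19 to 0.02 and -0.07, and from -0.29 to -0.03 and 0.08 for basal against Sca-1+ luminal libraries; the 39 genes kept medians of 1.18 and 1.19, and of -1.30 and -1.33. The share of all calls that were higher moved with them from 62% to 46.1% and 40.4% in Sca-1+ against Sca-1- luminal, from 22.1% to 46.1% and 53.2% in basal against Sca-1+ luminal, and from 13.4% to 33.2% and 37.8% in stromal against Sca-1+ luminal libraries. The cause of these shifts was not tested. No paired analysis was possible because the labels carry no replicate numbers. Depth limits the values of genes near or under 1 FPKM, more so for short transcripts, and fragment counts per gene were not used here.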

Other observations

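Receptors for the interferons differed between the gates. Ifnlr1, the specific chain of the type III interferon receptor, was at 6.26 and 7.59 FPKM in basal, 1.96, 1.78 and 1.29 in Sca-1- luminal libraries, 1.60, 3.83 and 8.62 in Sca-1+ luminal, and 0.0747 and 0.324 FPKM in stromal libraries, so the 3 epithelial gates were above the stromal one. Ifnar2, of the type I receptor, was at 65.9 and 91.0 FPKM in stromal libraries and 16.9 to 50.8 FPKM in the others, with Sca-1+ luminal replicate 3 the lowest. Ifngr1, of the interferon gamma receptor, was at 47.1 to 77.0 FPKM in Sca-1+ luminal and 22.4 to 36.1 FPKM in Sca-1- luminal libraries, and replicate 3, at 56.4 FPKM, was not the lowest of its gate. Tyk2 went the other way from Jak1, at 3.34 to 5.75 FPKM in Sca-1- luminal and 0.660 and 0.813 FPKM in stromal libraries.

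Socs1, a feedback inhibitor of Jak kinases, followed the GTPases: 0.778 to 1.51 FPKM in Sca-1- luminal libraries, 5.03 and 6.43 in basal, 17.4, 14.9 and 2.89 in Sca-1+ luminal, and 34.5 and 40.9 FPKM in stromal libraries. Ifi27l2a was listed at 0 in all basal and Sca-1- luminal libraries and in Sca-1+ luminal replicate 3, whereas replicates 1 and 2 of the latter gate had 47.6 and 31.9 FPKM and the stromal libraries 60.5 and 103 FPKM. These genes were picked from the lists after their values were seen, and the values are given without explanation.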
